A study of Danio rerio with 2 samples.

Results

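The cells described here were 67 of 5631 zebrafish cells that carried transcripts of myeloid genes in a sort made for pigment cells. They were chosen by a marker gate. Among cells with over 200 detected genes and under 5% mitochondrial transcripts, a cell entered the gate when at least 3 of 6 genes had a unique molecular identifier (UMI, 1 counted mRNA molecule) and the 6 genes together had at least 8 UMIs. The genes were *lyz* (lysozyme C), *mpx* (myeloid peroxidase), *mfap4* (a macrophage-expressed microfibril-associated protein), *spi1b* (Pu.1, the transcription factor that directs myeloid fate), *lcp1* (L-plastin, an actin bundler of leukocytes) and *coro1a* (coronin, an actin regulator of leukocytes). The gate held 58 of 3860 passing cells in the *mgat4b* mutant library and 9 of 1771 in the control library. The 6 genes chose the cells, so their levels are a description, and so are all contrasts of gated with other cells.

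Both libraries came from embryos injected at the 1-cell stage with a plasmid that carried *mitfa*:Cas9, *mitfa*:GFP and guide RNAs. The guides were against *mgat4b*, the gene of an enzyme that branches *N*-glycans, in the mutant, and nontargeting in the control. GFP+ cells were sorted at 36 hours post fertilization (hpf), were labelled as melanocytes, had no further treatment and were profiled by the droplet 10x Genomics 3′ method, 1 library per group. Embryos so injected are somatic mosaics, the number of embryos pooled was not given in the sources used here, and Cas9 was under a pigment-lineage promoter, so myeloid cells were not the intended target of the guides.

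In the zebrafish embryo, primitive macrophages and neutrophils arise from Pu.1-positive precursors of the anterior lateral mesoderm, spread through the tissues before definitive blood formation, and engulf dying cells and microbes. Macrophages carry the receptor Csf1ra, Mpeg1, scavenger receptors and lysosomal proteases. Neutrophils carry granule proteins such as lysozyme, myeloid peroxidase and matrix metalloproteinases, and both types use an NADPH oxidase to make reactive oxygen.

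With 1 library per group no test between groups was possible, and no p-value is given. All intervals are 95% intervals for the counting of molecules or cells alone, and the spread among embryos or sorts is outside them. The libraries held 31032783 UMIs in 4120 barcodes in the mutant and 17502003 UMIs in 1923 barcodes in the control. Passing cells had a median of 6480 UMIs in the mutant and 4919 in the control, and a lower quartile of 3040 UMIs in the mutant and 836 in the control. Gated cells were deeper than the rest in both libraries. Their median was 14047 UMIs (range 1456 to 41426) in the mutant and 12818 (500 to 27973) in the control, against 6392 and 4843 UMIs in all other passing cells. Mitochondrial UMIs had a median of 1.76% in gated mutant cells and 2.60% in gated control cells, against 0.943% and 1.1% in the other cells of those libraries. The libraries shared 2 barcodes, of which 1 was a gated mutant cell.

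The gate share was higher in the mutant. It was 1.50% of passing cells (1.14 to 1.94) in the mutant and 0.508% (0.233 to 0.963) in the control, a ratio of 2.96 (1.47 to 5.95). The gated cells held 2.84% of the UMIs of passing cells in the mutant and 0.720% in the control. When every cell was thinned to 4919 UMIs, 49 of 2369 mutant cells and 6 of 886 control cells met the gate, a ratio of 3.05 (1.31 to 7.11). When every cell was thinned to 836 UMIs, 19 of 3585 mutant cells and 0 of 1330 control cells met it, so no ratio was computed. Among cells of at least 1000 UMIs the ratio was 2.56 (1.23 to 5.34).

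The direction of the share depended on the gate. With at least 2 genes and 5 UMIs, 72 mutant cells (1.87%) and 55 control cells (3.11%) passed, a ratio of 0.601 (0.425 to 0.849). With at least 2 of *lyz*, *mfap4*, *spi1b* and *mpx* and 4 UMIs, the ratio was 0.593 (0.423 to 0.832), from 75 mutant and 58 control cells. With at least 4 genes and 16 UMIs it was 3.80 (1.74 to 8.31), from 58 and 7 cells. Thus all 58 mutant cells met the stricter gate, and 7 of the 9 control cells did.

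**Figure D1:**
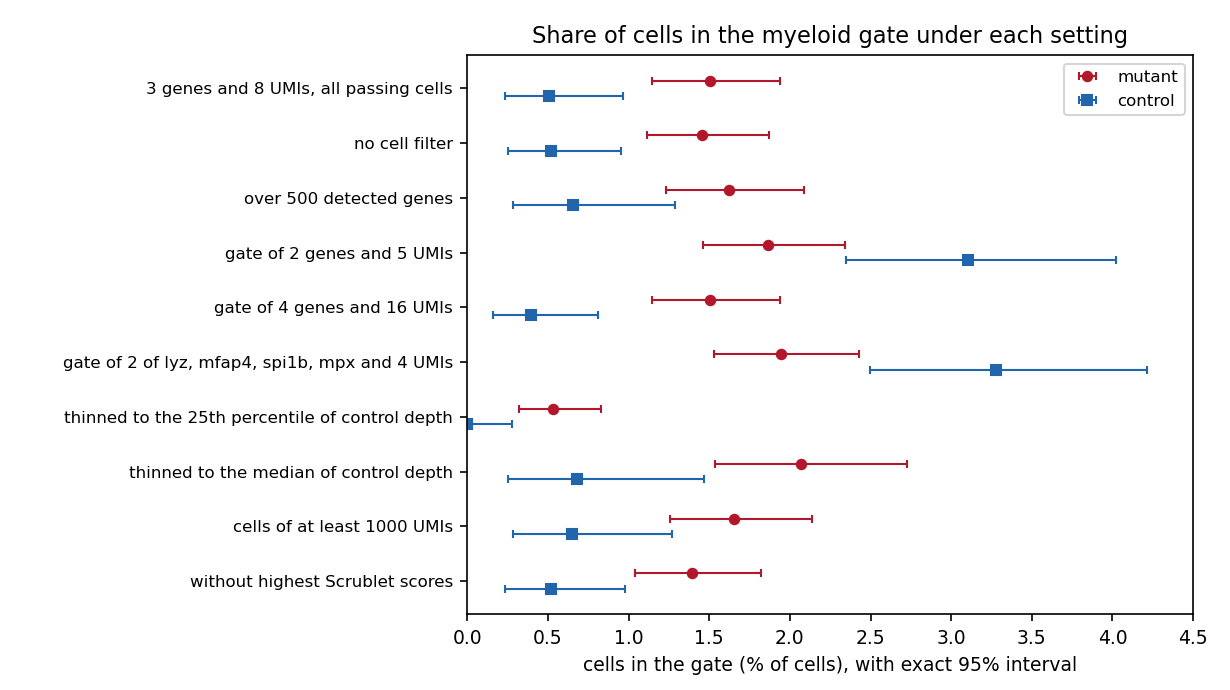
Share of cells in the myeloid gate (% of cells, x axis) under each setting, with exact 95% intervals, mutant (red circles) above control (blue squares). The mutant share was 1.50% and the control share 0.508% with the gate of 3 genes and 8 UMIs, and the order turned with both looser gates (1.87% against 3.11% with 2 genes and 5 UMIs).

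The cells near the threshold differed between the libraries. In the mutant, gated cells had from 18 to 3716 UMIs over the 6 genes, and none had 8 to 12 UMIs or exactly 3 genes. Just outside the gate the mutant had 5 cells with 3 or more genes and 5 to 7 UMIs, and 0 cells with 2 genes and at least 8 UMIs. The control had 2 gated cells with exactly 3 genes, with 22 and 54 gate UMIs. Just outside, it had 8 cells with 3 or more genes and 5 to 7 UMIs, of which 7 carried *lyz*, and 7 cells with 2 genes and at least 8 UMIs, of which 6 carried *lyz*. A single mutant cell, of 18523 UMIs, had 11 UMIs of *coro1a* as its only gate gene. In the control, 7 further cells had at least 8 UMIs of a single gate gene, and in all 7 that gene was *lyz*.

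*lyz* UMIs were spread over the control library and concentrated in the gate in the mutant. Among cells outside the gate, 325 of 3802 mutant cells (8.55%) and 809 of 1762 control cells (45.9%) had a *lyz* UMI, with at most 6 UMIs in a mutant cell and 10 in a control cell. Neuron-marker cells, a class that should lack *lyz*, had at least 3 of *elavl3*, *elavl4*, *stmn1b*, *snap25a* and *gng3* and 8 UMIs of them. A *lyz* UMI was found in 6.65% of 376 such mutant cells (median 6020 UMIs) and 31.8% of 255 such control cells (median 10675 UMIs). After thinning to 836 UMIs, the shares outside the gate were 1.56% in the mutant and 14.8% in the control, and in neuron-marker cells 1.07% and 4.35%. The part of this widespread *lyz* in the gate shares was not tested.

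Cells with at least 100 *lyz* UMIs were found in the mutant library only at this depth. There were 15 among 3860 passing mutant cells (0.389%, 0.218 to 0.640) and 0 among 1771 in the control, where 0 counts leave room for up to 0.169%. Of the library's *lyz* UMIs, 98.4% were in gated cells in the mutant (29529 UMIs) and 2.57% in the control (48 UMIs). *mpx* had 97.5% of its mutant UMIs in gated cells (1318 UMIs), against 17.5% (10 UMIs) in the control.

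The gated cells fell into groups by macrophage and neutrophil genes. A list of 23 macrophage genes and a list of 21 neutrophil genes, neither of which holds a gate gene, were summed per cell. Over all gated cells, the macrophage list had 4821 UMIs and the neutrophil list 6973 in the mutant, a macrophage share of 40.9% (40.0 to 41.8), against 1167 and 212 UMIs in the control, a share of 84.6% (82.6 to 86.5). The neutrophil-list share of the mutant rested on few cells. Its 15 cells with the lowest macrophage shares ranged from 0 to 4.13%, and the next cells were at 25.8% and 54.5%. In the control, 2 cells were at 0 and 3.33%, and the next was at 79.3%.

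**Figure D2:**
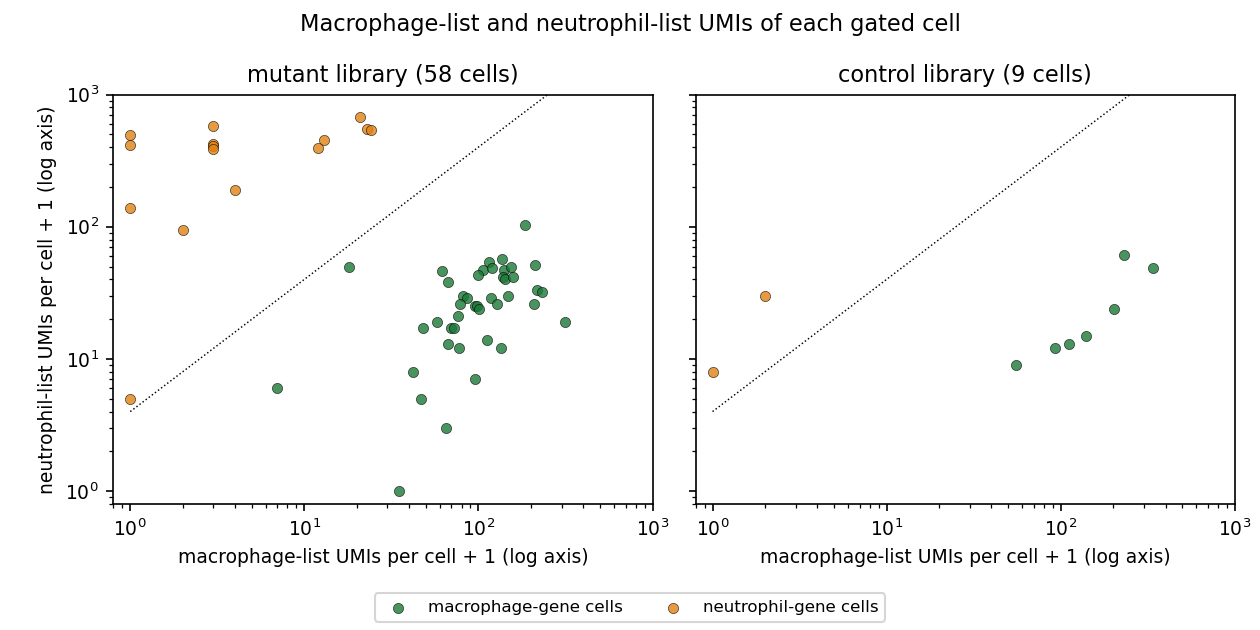
UMIs of the macrophage list (x axis) against UMIs of the neutrophil list (y axis) in each gated cell, both plus 1 on log axes, mutant left and control right. The dotted line is a macrophage share of 20%, with 15 mutant and 2 control cells above it and 43 mutant and 7 control cells below it.

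Cells with a macrophage share of up to 20% are called neutrophil-gene cells here (15 mutant, 2 control) and all others macrophage-gene cells (43 mutant, 7 control). The limit lies in a gap seen in the data, and the widest mutant gap, from 25.8% to 54.5%, lies above it. The deepest mutant cell, at 25.8%, is counted as a macrophage-gene cell with 17 macrophage-list and 49 neutrophil-list UMIs. The names describe ranges of a score, not cell types. Neutrophil-gene cells were 25.9% of gated mutant cells and 22.2% of gated control cells. The share of passing cells was 1.11% in the mutant and 0.395% in the control for macrophage-gene cells (ratio 2.82, 1.27 to 6.25). For neutrophil-gene cells it was 0.389% and 0.113% (ratio 3.44, 0.788 to 15.0), an interval that includes 1. A macrophage share of at least 80% was reached by 21 mutant and 6 control cells, and 30 mutant and 5 control cells lay within 10 points of that value, so it marks no gap.

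Of the 6 gate genes, *lyz*, *mpx* and *mfap4* separated these groups. In the 15 mutant neutrophil-gene cells, *lyz* had 6 UMIs in the lowest cell, a median of 2119 and 3510 in the highest, and *mpx* had 6, 90 and 192. In the 43 mutant macrophage-gene cells, *lyz* had 0, 0 and 177 UMIs and *mpx* 0, 0 and 1. The single macrophage-gene cell with 177 *lyz* UMIs had 83.9% of the *lyz* of that group. The groups overlapped only through that cell and the shallowest neutrophil-gene cell, which had 6 *lyz* UMIs of 1456 UMIs in all.

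*mfap4* had the opposite distribution. It was at 0 in all 15 mutant neutrophil-gene cells and had 0, 37 and 227 UMIs in mutant macrophage-gene cells (lowest, median, highest), with a UMI in 41 of 43. In the 7 control macrophage-gene cells it had 8, 45 and 100 UMIs. The genome holds near copies of *mfap4*, so the division of reads among them is uncertain. An entry without a symbol in the data, named MFAP4 in a gene-name reference, had 880 UMIs in gated control cells, against 298 of *mfap4*. The values given for *mfap4* leave that entry out.

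The leukocyte-wide gate genes were present in both groups. *spi1b* had 1, 19 and 40 UMIs in mutant neutrophil-gene cells and 1, 11 and 47 in mutant macrophage-gene cells (lowest, median, highest). *coro1a* had 4, 26 and 70 UMIs and 0, 6 and 24 UMIs in those groups, and *lcp1* had 1, 19 and 49 and 1, 8 and 22. In control macrophage-gene cells *spi1b* had 0, 6 and 19 UMIs, *coro1a* 2, 5 and 18 and *lcp1* 1, 3 and 12.

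**Figure D3:**
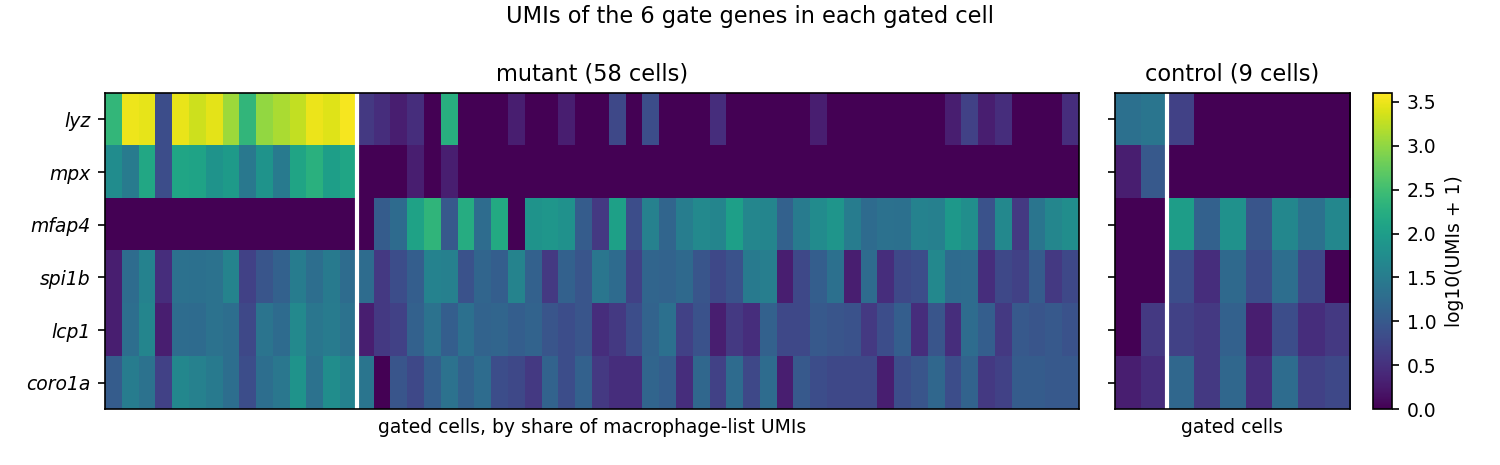
UMIs of the 6 gate genes (color, log10 of UMIs plus 1) in each gated cell, 58 mutant cells left and 9 control cells right, ordered by macrophage share, with a white line between neutrophil-gene cells (left of it) and macrophage-gene cells. *lyz* and *mpx* are high in the mutant neutrophil-gene cells except the shallowest, which has 6 UMIs of each, and *mfap4* is at 0 in all 15. The 2 control cells left of the line have 20 and 24 *lyz* UMIs.

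The 2 control neutrophil-gene cells had fewer *lyz* UMIs than all mutant ones but the shallowest. The first had 500 UMIs in all, with 20 of *lyz*, 1 of *coro1a* and 1 of *mpx*, and 23 UMIs of an epidermis list. Mutant neutrophil-gene cells had a median of 17427 UMIs, so the low counts of this first cell show no lower level. The second had 12818 UMIs, with 24 of *lyz*, 9 of *mpx*, 3 of *lcp1* and 2 of *coro1a*. It also had 10 UMIs of *ptprc* (CD45), 72 of the epidermis list and 137 of the 161 mesenchyme-list UMIs in gated control cells. Neither had a *spi1b* UMI, which says little for the first at its depth. These 2 cells held 36 of the 212 neutrophil-list UMIs in gated control cells, and macrophage-gene cells held the other 176. Comparisons of neutrophil-gene cells between the libraries rest on these 2 cells for the control.

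Some mutant macrophage-gene cells also stood apart. The deepest cell, at 41426 UMIs, had no *mfap4* or *mpx*, 3 *lyz*, 18 *spi1b* and 24 *coro1a* UMIs, and 11 of the 21 *myb* UMIs in gated cells. *myb* encodes a transcription factor of blood progenitors. In that cell a list of G1/S genes had 74 UMIs and a list of G2/M genes 37. A pair of cells had 349 and 256 UMIs of a xanthophore list, mostly *gch2* (196 and 163 UMIs), an enzyme of pteridine pigment synthesis. A cell of 3674 UMIs had 312 UMIs of an erythroid list, and a cell of 31372 UMIs had 77 of a neuron list, of which 69 were *elavl3*, an RNA-binding protein of neurons. These counts lie beside the myeloid genes in the same barcodes, and the part of doublets or free RNA in them was not tested. The ranks of a doublet score left out 6 gated mutant cells, among them the neuron-list cell and 1 of the xanthophore-list pair, and 0 gated control cells.

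Levels over groups of cells are given as UMIs of a gene per 1000000 UMIs of those cells (CPM). In the mutant, 936 of 4617 genes with at least 20 UMIs in gated cells (20.3%) were at least 4-fold higher in gated than in all other passing cells with an interval that excluded 1, and 139 (3.01%) were at least 4-fold lower. In the control, with 123103 UMIs in its gated cells, 390 of 994 genes (39.2%) were higher and 7 (0.704%) lower. The median log2 ratio over all genes with enough UMIs was 0.53 in the mutant and 1.37 in the control, so list medians are to be read against those values. Scaling by TMM factors, an estimate of relative depth that is robust to a few high genes, moved every log2 ratio by 0.16 in the mutant and −0.37 in the control. Genes with enough UMIs in gated cells are by construction those present there.

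Leukocyte genes were among the strongest of this contrast. Of 20 leukocyte-list genes with enough UMIs, 19 were higher in gated mutant cells (median log2 ratio 5.75), and in the control 16 of 17. *ptprc* was at 701 CPM in gated and 3.75 CPM in other mutant cells, a ratio of 187 (152 to 231). *laptm5*, a lysosomal membrane protein of blood cells, had a ratio of 195 (154 to 248), and *itgb2*, the integrin β2 chain of leukocytes, a ratio of 415 (245 to 757).

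All 6 NADPH oxidase genes were higher in gated mutant cells, and all 3 with enough UMIs were in the control. *ncf1*, the organizer subunit p47phox, was at 1869 CPM in gated and 3.38 CPM in other mutant cells, and *cybb*, the catalytic subunit, at 266 and 1.72 CPM. *rac2*, the leukocyte small GTPase that the oxidase and the actin cytoskeleton use, was at 979 and 46.9 CPM, a ratio of 20.9 (19.2 to 22.8).

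All 19 macrophage-list genes with enough UMIs were higher in gated mutant cells, as were 14 of 14 in the control. *mpeg1.1*, the pore-forming perforin-2, was at 345 CPM in gated and 0.372 CPM in other mutant cells. *marco*, a scavenger receptor, was at 552 and 0.237 CPM. *havcr1*, of the Tim family of phosphatidylserine receptors, was at 956 and 2.40 CPM. *acod1*, which makes itaconate, was at 466 and 0.575 CPM. The control ratios were 1002 for *mpeg1.1*, 541 for *marco* and 665 for *havcr1*.

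Of 15 neutrophil-list genes with enough UMIs, 13 were higher in gated mutant cells and 1, the cofilin-like *cfl1l*, was lower. *npsn*, a granule astacin protease, was at 1018 CPM in gated and 0.879 CPM in other mutant cells. *mmp13a*, a collagenase, was at 1444 and 13.5 CPM. *srgn*, the granule proteoglycan serglycin, was at 2912 and 12.6 CPM. In the control, 3 of 3 genes with enough UMIs were higher (*lect2l*, *srgn* and *adgrg3*), and macrophage-gene cells held 176 of the 212 list UMIs in the gate. The summed list was at 8063 CPM in gated and 947 CPM in other mutant cells, but at 1722 and 1326 CPM in the control. There, 6 of its genes were at 0 in gated cells.

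Lysosome genes were higher too, with a lower median ratio than the lists above, though some of them had large ratios. Of 24 lysosome and phagocytosis genes, 21 were higher in gated mutant cells (median log2 ratio 3.62), and in the control 18 of 19. The cathepsin gene *ctss2.1* was at 2126 CPM in gated and 6.69 CPM in other mutant cells, while *ctsd* was at 1555 and 122 CPM. *cd63*, a tetraspanin of late endosomes, was at 2686 and 227 CPM.

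Cytokine genes followed the same direction. Of 14 cytokine and chemokine genes, 13 were higher in gated mutant cells and *cxcl18b* was lower, and in the control 8 of 8 were higher. *il1b*, the inflammatory cytokine interleukin-1β, was at 1561 CPM in gated and 5.95 CPM in other mutant cells. *tnfa*, tumor necrosis factor, was at 208 and 0.169 CPM. *csf3b*, granulocyte colony-stimulating factor, was at 446 and 0.913 CPM. *cxcl8a*, the neutrophil attractant Cxcl8, was at 501 and 68.5 CPM, the smallest ratio of those named (7.31). Of 14 receptor genes 11 were higher, and of 10 genes of toll-like receptor signaling 6 were higher.

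Genes of the actin cytoskeleton split. Of 29, 14 were higher and 1 lower in gated mutant cells, with a median log2 ratio of 1.96. The 14 include *coro1a* and *lcp1*, gate genes whose higher level was set by the choice of cells. *tmsb4x*, thymosin β4, which binds actin monomers, was at 23896 CPM in gated and 6841 CPM in other mutant cells, a ratio of 3.49 that stayed under the 4-fold limit. Iron genes were mostly higher (6 of 8). The ferritin gene *fthl27* was at 12542 and 1335 CPM, and *hmox1a*, heme oxygenase, at 960 and 37.2 CPM.

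The migration genes *rac2*, *csf3b*, *rgs2* and *itga6b* were measured in the gate together with *tfec*. The study used those migration genes, beside pigment cell and stem cell markers, to describe a pigment cell population. In the mutant, gated cells were 1.50% of cells and held 93.5% of the library's *csf3b* UMIs, 66.7% of *rgs2* (a regulator of G-protein signaling), 37.9% of *rac2* and 55.8% of *tfec*. In the control, gated cells were 0.508% of cells and held 82.1% of *csf3b*, 25% of *rgs2*, 10.1% of *rac2* and 26.8% of *tfec*. The 32 *csf3b* UMIs of the control gate lay in 2 of its 9 cells. There, *rgs2* had a UMI in 4 cells and *tfec* in 7, and a single cell had 18 *rgs2* and 20 *tfec* UMIs. *tfec* encodes an Mitf-family transcription factor known from both iridophores and macrophages. By contrast *itga6b*, the integrin α6 chain, had 0.231% of its UMIs in the gate in the mutant and 0.0514% in the control.

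Galectin genes, whose products bind β-galactosides, were divided. *lgals9l1* had 89.1% of its mutant UMIs and 77.8% of its control UMIs in gated cells, *lgals9l3* 51.5% and 40.0%, and *lgals2a* 60.7% and 41.2%. *lgals1l1* had 0.880% and 0.445%, and *lgals3b* 1.23% and 0.356%. Thus 3 of 5 galectin genes with enough UMIs were higher in gated mutant cells. *lgals9l1* was at 237 CPM in gated and 0.845 CPM in other mutant cells, a ratio of 281 (185 to 444).

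*mitfa*, the melanophore determinant, and the targeted gene were low in the gate. *mitfa* had 8 UMIs in gated mutant cells (9.25 CPM, against 46.6 CPM in other mutant cells) and 0 in gated control cells. *mgat4b* also had 8 UMIs in gated mutant cells (9.25 CPM, against 65.9 CPM in other mutant cells) and 0 in gated control cells (81.3 CPM in other control cells). All 8 *mgat4b* UMIs lay in 4 cells. These were the neuron-list cell (3), the xanthophore-list pair (2 and 1) and a neutrophil-gene cell with 37 neuron-list UMIs (2). The part of doublets or free RNA in these UMIs was not tested. The level of *mgat4b* between the gates of the libraries could not be compared at this depth. None of 9 *N*-glycan branching genes with enough UMIs differed by 4-fold between gated and other mutant cells, against 20.3% higher and 3.01% lower over all genes.

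Most lists of other cell types had lower sums in gated cells, and some had higher ones. The epidermis list summed to 878 CPM in gated mutant cells and 1795 CPM in gated control cells, against 31901 and 45353 CPM in the other cells. The erythroid list summed to 458 and 203 CPM in gated cells, against 20545 and 8858 CPM, and without the cell of 312 erythroid UMIs the mutant value was 97.5 CPM. The xanthophore list summed to 923 and 309 CPM, against 3839 and 970 CPM, and without the pair of cells of 349 and 256 UMIs the mutant value was 229 CPM. The mesenchyme list summed to 115 and 1308 CPM, against 3724 and 6121 CPM, and without the single cell described above the control value was 218 CPM. The iridophore list summed to 629 and 431 CPM in gated cells, against 538 and 382 CPM in the other cells of the mutant and control, and its *tfec* was higher while *pnp4a*, an enzyme of purine pigment synthesis, was at 4.63 and 0 CPM in gated cells. The list of hatching gland and yolk genes summed to 2919 and 2794 CPM, against 1174 and 832 CPM, and holds *cd63*. A mast cell list, which holds *cpa5* and the Fc receptor chain gene *fcer1gl*, summed to 1341 and 1227 CPM, against 27.1 and 37.4 CPM, and *hdc* and *kita* of that list were at 0. The lymphoid list summed to 38.2 and 0 CPM, against 24.3 and 31.3 CPM, with *rag1*, *rag2* and *lck* at 0. *krt4*, a keratin of the outer epidermal layer, had a ratio of 0.0135 (0.0112 to 0.0162) in the mutant.

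Within the mutant gate, the macrophage-gene and neutrophil-gene cells were then set side by side. Their own 2 lists made the split, so those genes are description. Of 4617 genes, 831 (18%) were at least 4-fold higher in macrophage-gene cells and 203 (4.4%) in neutrophil-gene cells, against a median log2 ratio of 0.48. Of the split lists, 16 of 19 macrophage genes were higher in macrophage-gene cells and 12 of 15 neutrophil genes in neutrophil-gene cells.

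**Figure D4:**
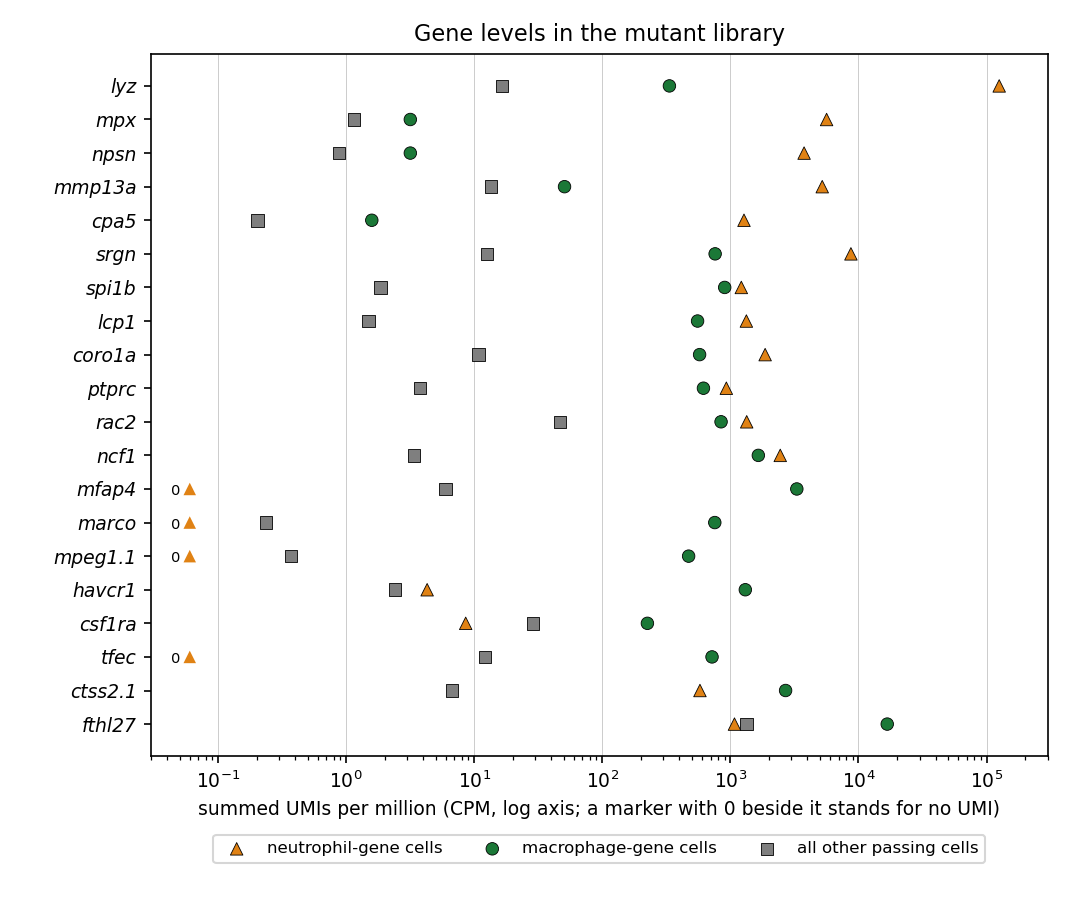
Level (CPM, log axis) of 20 genes in mutant neutrophil-gene cells (orange triangles), mutant macrophage-gene cells (green circles) and all other passing mutant cells (grey squares), with a 0 beside a marker that stands for no UMI. *lyz* is at 125641 CPM in neutrophil-gene cells and 334 CPM in macrophage-gene cells, while *ptprc*, *rac2* and *ncf1* lie close together in both.

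Neutrophil-gene cells carried granule and secreted genes. *lyz* was at 125641 CPM in neutrophil-gene and 334 CPM in macrophage-gene cells, a ratio of 376. *mpx* was at 5640 and 3.17 CPM, *npsn* at 3763 and 3.17 CPM, and *mmp13a* at 5215 and 50.7 CPM. *cpa5*, a carboxypeptidase known from zebrafish mast cells, was at 1277 and 1.58 CPM, with a UMI in 13 of 15 neutrophil-gene cells (lowest 0, median 17, highest 54 UMIs). *mmp9*, gelatinase B, was at 1414 and 31.7 CPM. *il34*, a ligand of Csf1r, was at 523 CPM in neutrophil-gene cells, with a UMI in 14 of 15 cells (0, 7 and 24 UMIs). It was at 0 in all macrophage-gene cells, so its level was at least 110-fold higher in neutrophil-gene cells. *f5*, coagulation factor V, was at 313 and 3.17 CPM.

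Macrophage-gene cells carried scavenging, lysosomal and iron genes. *marco* had 0, 7 and 47 UMIs (lowest, median, highest), with a UMI in 37 of 43 cells, and was at 0 in neutrophil-gene cells, so its level was at least 58.8-fold higher. *mpeg1.1* had 0, 5 and 19 UMIs, in 40 of 43 cells, and was also at 0 in neutrophil-gene cells (at least 36.7-fold higher). *tfec*, which is in neither list, had 0, 9 and 41 UMIs, in 35 of 43 cells, and was at 0 in neutrophil-gene cells (at least 55.9-fold higher). The receptor gene *csf1ra* was at 225 CPM in macrophage-gene and 8.57 CPM in neutrophil-gene cells. *irf8*, a transcription factor of macrophage fate, was at 136 and 0 CPM.

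The lysosome list moved with the macrophage genes. Of 24 lysosome and phagocytosis genes, 20 were higher in macrophage-gene cells and 1, the acid ceramidase gene *asah1a*, in neutrophil-gene cells, with a median log2 ratio of 3.73. The macrophage list also holds 5 of the 20 (*lgmn*, *ctss2.2*, *grn1*, *grn2* and *marco*). *ctsla*, cathepsin L, was at 2702 CPM in macrophage-gene and 30 CPM in neutrophil-gene cells, and *ctsba*, cathepsin B, at 2170 and 103 CPM. *cd63* was at 2762 and 2481 CPM, a difference under 4-fold.

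Of 8 ferritin and iron genes, 6 were higher in macrophage-gene cells and none in neutrophil-gene cells. *fthl27* was at 16780 CPM in macrophage-gene and 1076 CPM in neutrophil-gene cells. *slc40a1*, the iron exporter ferroportin, was at 310 and 4.29 CPM, and *hmox1a* at 1287 and 72.9 CPM. Galectin genes were on the same side, with *lgals2a* at 1045 and 4.29 CPM and *lgals9l1* at 322 and 8.57 CPM.

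Most cytokine genes were macrophage-sided. Of 14, 8 were higher in macrophage-gene cells and 2 (*il34* and *il4*) in neutrophil-gene cells. The 8 include *ccl34a.4*, which the macrophage list also holds. *tnfa* was at 285 CPM in macrophage-gene cells, with 0, 0 and 36 UMIs (18 of 43 cells), and at 0 in neutrophil-gene cells, at least 22.2-fold higher. *cxcl8a* was at 684 and 4.29 CPM, and *csf3b* at 581 and 81.4 CPM. *il1b* was at 1848 and 784 CPM, under 4-fold. *csf3r*, the receptor for granulocyte colony-stimulating factor, was at 85.5 CPM in macrophage-gene and 133 CPM in neutrophil-gene cells, also under 4-fold.

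In other groups few genes passed the limit, against 18% of all genes higher in macrophage-gene cells and 4.4% in neutrophil-gene cells. None of 6 NADPH oxidase genes reached 4-fold between macrophage-gene and neutrophil-gene cells, and 1 of 20 leukocyte genes did (*fcer1g*). None of 10 genes of toll-like receptor signaling did. *ptprc* was at 616 CPM in macrophage-gene and 930 CPM in neutrophil-gene cells, *rac2* at 846 and 1341 CPM, and *ncf1* at 1653 and 2451 CPM.

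The gates of the libraries were compared next. Of 5034 genes with at least 20 UMIs in both gates together, 347 (6.89%) were at least 2-fold higher in the mutant gate with an interval that excluded 1, and 448 (8.9%) were at least 2-fold lower. The balance depended on the scaling. With TMM factors, which moved every log2 ratio by 0.38, 723 were higher and 222 lower, and with means of per-cell CPM 1335 were higher and 646 lower. Of 15 neutrophil genes 7 were higher and none lower, of 19 macrophage genes 2 were higher and 5 lower, and all 4 mesenchyme and 5 of 9 epidermis genes were lower. The control cell of 12818 UMIs held 137 of the 161 mesenchyme-list and 72 of the 221 epidermis-list UMIs of its gate. In macrophage-gene cells alone, 1 of 2 mesenchyme genes was lower, and of 7 epidermis genes 2 were lower and 1 higher. *lyz* had a ratio of 87.6 (66.0 to 119), *mpx* 18.8, *spi1b* 2.25, *lcp1* 2.77, *coro1a* 1.75 and *mfap4* 0.996 (0.882 to 1.13). Neutrophil-gene cells were a like share of both gates, 25.9% in the mutant and 22.2% in the control. The gates differed in which cells held the neutrophil-list UMIs. In the mutant, neutrophil-gene cells held 5731 of 6973. Of the 212 neutrophil-list UMIs in gated control cells, 176 were in macrophage-gene cells and 36 in the cells of 500 and 12818 UMIs.

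The comparison was therefore repeated in macrophage-gene cells alone, 43 mutant and 7 control, a choice made after the values were seen. Of 4240 genes, 316 (7.45%) were at least 2-fold higher in the mutant and 282 (6.65%) lower, with a median log2 ratio of 0.02. TMM factors moved every log2 ratio here by 0.24. Among others, this takes *csf3b*, *lcp1*, *spi1b* and *rgs2* past the 2-fold limit, *ccl34a.4* inside it and *rac2* above 1. Cells of 1 library are not replicates, and the 7 control cells carry each control value.

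**Figure D5:**
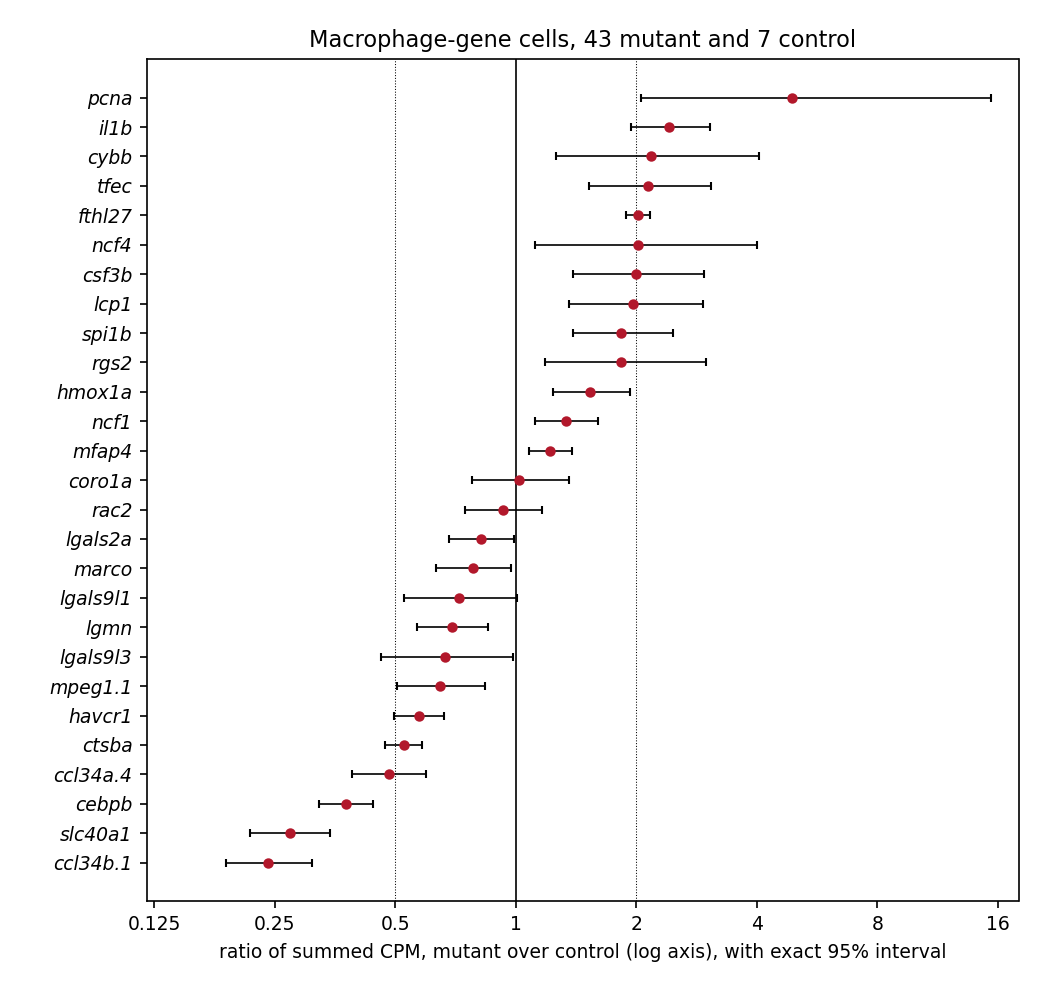
Ratio of summed CPM in macrophage-gene cells, 43 mutant over 7 control (log axis), with exact 95% intervals that cover counting error only and dotted lines at 0.5 and 2. *pcna* and *il1b* are at 4.90 and 2.42, *rac2* and *coro1a* lie near 1, and *ccl34b.1* and *slc40a1* are at 0.241 and 0.273. Some of the genes shown were chosen after their values were seen.

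Cytokine genes went both ways in the mutant cells, and some oxidase genes were higher. Of 11 cytokine and chemokine genes, 2 were higher (*il1b* and *tnfa*) and 3 lower (*csf3a*, *ccl34a.4* and *ccl34b.1*). Of 13 receptor genes, 3 were higher and 2 lower (*tnfrsf1a* and *tnfrsf1b*, the receptors of tumor necrosis factor). *il1b* had 0, 22 and 90 UMIs in mutant cells (lowest, median, highest) and 4, 13 and 18 UMIs in control cells. The groups overlapped, and the summed ratio was 2.42 (1.93 to 3.05). *tnfa* had 180 UMIs in 18 mutant cells and 0 in the control cells (at least 10.4-fold higher), and *adam8a*, a membrane metalloproteinase of leukocytes, 186 UMIs in 31 mutant cells and 0 in the control cells (at least 10.8-fold higher). Of 6 oxidase genes 3 were higher, among them *cybb*, with a ratio of 2.17 (1.26 to 4.06), and *ncf4*, with a ratio of 2.01 (1.12 to 3.99), and *ncf1* was at 1.34. *csf3b* had 0, 1 and 60 UMIs in mutant and 0, 0 and 23 in control cells, with a UMI in 24 of 43 and 2 of 7 cells, and a ratio of 1.99 (1.39 to 2.96), just under the limit.

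Proliferation genes were higher as well, on low control counts. Of 6 G1/S genes 4 were higher (*pcna*, *mcm5*, *mcm6* and *rrm2*) and of 6 G2/M genes 3 (*mki67*, *top2a* and *aurkb*). *pcna*, the DNA polymerase clamp, had 141 UMIs in mutant and 5 in control cells, a ratio of 4.90 (2.05 to 15.3). *mki67*, a protein of cycling cells, had 113 UMIs in 17 of 43 mutant cells and 1 UMI in the control cells, a ratio of 19.7 (3.46 to 783). The largest *mki67* counts were 21 UMIs in the deepest cell and 19 each in the neuron-list cell and in cells of 23066 and 23739 UMIs. The G1/S list had 0, 4 and 74 UMIs per mutant cell and 0, 0 and 4 per control cell. The 74 UMIs were in the deepest cell, which also had 28 of the *pcna* UMIs. Between gates, *pcna* and *mki67* stayed above 1 when the deepest mutant cell and the 2 control neutrophil-gene cells were left out. Ratios without all of these mutant cells together were not computed.

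A further set was lower in the mutant cells. *slc40a1* had 0, 3 and 25 UMIs in mutant cells and 7, 18 and 27 in control cells, a ratio of 0.273 (0.217 to 0.344). *cebpb*, a transcription factor of inflammatory myeloid genes, had 0, 10 and 56 UMIs in mutant and 18, 29 and 52 in control cells, a ratio of 0.377 (0.323 to 0.441). In both of these genes the groups overlapped, with the mutant median below the control median. Other cells of the mutant also had less *slc40a1* (ratio 0.487), while *cebpb* there was at 0.823.

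Macrophage-list genes as a whole were near or below the control, but this list also set the class. In the class, 22 mutant cells and 1 control cell had a macrophage share between 20% and 80%. The part of the class limit in the levels of the list was not tested. Of 19 list genes, 2 were higher (*grn1* and *grn2*) and 3 lower (among them *c1qc* and the chemokine gene *ccl34a.4*), with a median log2 ratio of −0.47. Over all genes, 7.45% were higher and 6.65% lower. *mpeg1.1* was at 0.648, *marco* at 0.782, *havcr1* at 0.572 and *mfap4* at 1.22. *grn1* had 73.4% of its mutant UMIs in 1 cell. *fthl27* had 21, 235 and 664 UMIs in mutant and 17, 119 and 343 in control cells, a ratio of 2.02 (1.88 to 2.16), and it was at 1.80 in other cells too. *tfec* had 0, 9 and 41 UMIs in mutant and 1, 3 and 20 in control cells, with a ratio of 2.13 (1.52 to 3.07), against 2.04 in other cells.

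Galectin and *N*-glycan genes did not pass the limit. None of 4 galectin genes and none of 8 *N*-glycan branching genes differed by 2-fold. Over all genes 7.45% were higher and 6.65% lower, so no call in lists this short lies near that share. Ratios were 0.820 for *lgals2a*, 0.720 (0.525 to 1.01) for *lgals9l1* and 0.667 (0.462 to 0.986) for *lgals9l3*. *rac2* was at 0.928, *coro1a* at 1.02 and *rgs2* at 1.83.

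Several large ratios rested on 1 or 2 cells. *gch2* had 381 UMIs in mutant and 0 in control cells, with 94.2% in the pair of cells described above. The same pair held 76.6% of the xanthophore-list UMIs of mutant macrophage-gene cells, and 5 of 7 xanthophore genes were higher in the mutant with that pair included. *hamp*, hepcidin, had 173 and 0 UMIs, with 46.2% in 1 cell. *elavl3* had 70 UMIs in mutant cells and 1 in control cells, with 69 in 1 cell, and without that cell the ratio was 0.183. The ratio of *lyz* was 9.17 with its top cell and 1.53 (0.544 to 5.92) without it. *ccl34b.1*, a chemokine gene, had a ratio of 0.241 (0.189 to 0.309), with 101 of its 116 control UMIs in 1 cell, and 1.57 (0.921 to 2.86) without that cell.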

How the data were processed

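GFP+ cells of 1 *mgat4b* mutant and 1 control library were examined. For each library the authors deposited raw UMI counts by gene and barcode, made with Cell Ranger 7.2.0 per the file headers against Ensembl GRCz11, with no normalization. Genes that share a symbol were summed (25432 features, 24782 symbols). Cells with over 200 genes and under 5% mitochondrial UMIs were kept, and doublets were kept, since Scrublet (scanpy 1.11.5) marked 0 mutant and 2 control cells on its own threshold. The members and the gene lists were chosen with earlier results of these data known. UMIs were summed over cells (Python 3.11.15, scipy 1.17.1) and given as CPM, with exact Poisson intervals, ratios with exact conditional binomial intervals, shares with exact Clopper-Pearson intervals and ratios of shares with Katz intervals. A 0 was set at 3 counts over the group for a bound. Values given as at least so many fold leave out the counting error of the other group and are not interval limits. Genes named were the gate genes, up to 4 per list by UMIs, the 12 largest ratios of gated over other cells, the 5 largest in each direction between gates and 11 genes tied to migration, galectins, pigment and the target, and others named were chosen after their values were seen. The size rules were tested on simulated data, where the rule for mutant over control between gates also called some unchanged genes. Alternatives varied the filter, gate, depth, doublets, scaling (edgeR 4.0.16 TMM in R 4.3.3) and UMI minimum. The restriction to 1 class of gated cells and the exclusion of 3 single cells were added after the data had been seen. The study's cluster labels were not used here, and a promoter motif comparison was not run. Some genes are not reported here.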

Additional observations from a re-analysis of the deposited data

Results flagged for a closer look

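For 4 named genes the ratio of mutant over control ran one way in gated cells and the other way in all other passing cells, with both counting intervals excluding 1. The difference was not tested, because each group had 1 library. *lyz* was at 87.57 in gated cells and 0.1538 in other cells, *mpx* at 18.76 and 0.4149, *spi1b* at 2.251 and 0.6437, and the galectin gene *lgals9l3* at 0.5656 and 1.429. *lyz*, *mpx* and *spi1b* are gate genes, so both sides of that split were set in part by the rule that chose the cells. In macrophage-gene cells alone *lyz* was at 9.17, *spi1b* at 1.84 (1.39 to 2.47) and *lgals9l3* at 0.667 (0.462 to 0.986). With TMM factors, which moved every log2 ratio between gates by 0.38, the interval of *lgals9l3* in gated cells takes in 1.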

How the results depend on the processing

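No paired analysis was possible because each group had 1 library. The ratio of gate shares (2.96) was 0.601 with 2 genes and 5 UMIs and 0.593 with 2 of *lyz*, *mfap4*, *spi1b* and *mpx* and 4 UMIs, and stayed above 1 under the other settings that gave a ratio. Thinning to 836 UMIs gave 0 control cells and no ratio. Of genes higher in gated control cells (390), a minimum of 10 UMIs gave 649 and of 50 UMIs 143. Genes lower in gated mutant cells (139) numbered 89 with macrophage-gene cells only, 351 with at least 10 and 32 with at least 50 UMIs. Genes lower in gated control cells (7) numbered 33 with the looser gate, 3 with macrophage-gene cells only, 3 without the 2 control *lyz* cells and the deepest mutant cell, 12 with TMM, 26 with at least 10 and 2 with at least 50 UMIs. Between gates, genes higher in the mutant (347) numbered 913 with the looser gate, 723 with TMM and 1335 with mean per-cell CPM, and genes lower (448) 1444 with the looser gate, 282 with macrophage-gene cells only, 222 with TMM and 244 with at least 50 UMIs. The macrophage share of list UMIs in control cells was 64.3% with the looser gate and 86.9% without those single cells. In mutant cells it was 39.1% without the highest Scrublet scores, 15.4% with gate genes added and 47.3% without the top gene of each list. Among 121 named genes with at least 20 UMIs, the looser gate turned the log2 ratio between gates for 18, to 0.78 (*havcr1*), 0.053 (*cebpb*), 0.76 (*itgae.1*), 0.53 (*ccl34a.4*), 0.19 (*tnfrsf1b*), 0.62 (*ifi30*), −1.96 (*gch2*), −0.12 (*pax7b*), −1.51 (*aox5*), −0.25 (*elavl3*), 0.049 (*apoeb*), −1.03 (*pcna*), −0.85 (*rrm1*), −1.54 (*rrm2*), −0.98 (*mcm5*), −0.68 (*mki67*), −0.26 (*top2a*) and 0.85 (*si:dkey-5n18.1*). The stricter gate turned 2, *apoeb* (0.39) and *ccl34b.1* (0.34), and macrophage-gene cells only turned 7, *mpx*, *npsn*, *f5* and *ch25hl2* (−0.20 each), *cfh* and *cpa5* (−0.94 each) and *col12a1a* (0.65). Leaving out the top cell turned *hbbe1.3* (−0.33), *ccl34b.1* (0.34) and *col12a1a* (0.20). TMM, mean per-cell CPM, no cell filter and totals without mitochondrial and ribosomal genes turned none of the 121. The causes were not tested. The 123103 UMIs in gated control cells limit every ratio between the libraries.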
